A study of Homo sapiens with 24 samples.

Results

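The 10 genes described here encode matricellular proteins and enzymes or scaffolds of matrix crosslinking: POSTN, FN1, SPARC, THBS1, THBS2, TNC, OLFML2B, LOX, LOXL2 and FBN1. They were taken by symbol from 4 gene expression tables that together hold 65298 gene symbols. POSTN and OLFML2B were picked because they fell in Hs578T BCSCs, so their values in that line are a description with no test. RNA-Seq was performed on 24 libraries of 3 established triple-negative breast cancer (TNBC) lines, with 3 biological replicates in each of 8 conditions. From wild-type Hs578T and wild-type HCC70 cells, breast cancer stem-like cells (BCSCs) were sorted as CD24-CD44+ and ALDH+, and non-BCSCs as cells lacking both. MDA-MB-231 cells carried control sgRNA (sgCtrl) or the first KIF20A sgRNA (KIF20A sg1), labelled a KIF20A knockdown. In a separate experiment, MDA-MB-231 cells carried an empty control vector (EV) or were labelled KIF20A overexpression (KIF20A OE). KIF20A is a mitotic kinesin and the gene under study. Each of these 4 experiments has a batch number of its own in the labels, so each comparison lies within 1 batch.

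Matricellular proteins are secreted into the extracellular matrix, where they tune how cells attach, migrate and respond to growth factors rather than bear mechanical load. Lysyl oxidases join collagen and elastin molecules covalently, and fibronectin and fibrillin fibres are scaffolds on which other matrix proteins assemble. In breast tumors these proteins are made by fibroblasts and by carcinoma cells of mesenchymal character, and stiff, crosslinked matrix is a known trait of invasive disease.

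Libraries held 28403151 to 33973761 reads for Hs578T, 24984030 to 33986022 for HCC70, 41424338 to 51018667 for the sgRNA experiment and 15971297 to 22182293 for the vector experiment. Of 7 epithelial markers, 2 (KRT8 and KRT18) were above the minimum level in Hs578T, whereas all 7 were in HCC70. VIM, a filament protein of mesenchymal cells, was at a mean of 3699 TPM (a level scaled for transcript length and library total) among Hs578T non-BCSCs and 6.23 TPM among HCC70 non-BCSCs. KIF20A itself was at 153, 173 and 156 normalised reads in sgCtrl and 122, 145 and 91.1 in KIF20A sg1, so the groups did not overlap, but its log2 fold change of -0.45 (SE 0.16) had an adjusted p of 0.69 by limma. In the vector experiment KIF20A was at 101, 143 and 124 CPM (reads scaled to a common library total) in EV and 1348, 269 and 896 CPM in the libraries bearing the KIF20A OE label, called labelled-OE libraries below. Those 3 libraries stood apart from EV in genes that mark a cell line. All 5 genes listed as MDA-MB-231 genes (CD44, AXL, CAV1, NT5E and VIM) were lower, with a summed level of 5772 to 6453 CPM in EV and 363 to 803 CPM in the labelled-OE libraries. All 5 genes listed as known from HEK293 cells (IRS4, NEFL, NEFM, PAX2 and LHX1) were higher, with a summed level of 0 to 0.143 CPM in EV, where IRS4, NEFL and PAX2 were at 0, and 1295 to 1880 CPM in the labelled-OE libraries. Results from these libraries are given under their label.

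Compared per transcript length, the 10 genes were expressed at very different levels, and the order of the conditions differed from gene to gene. Together they held 1.16% to 1.18% of all transcripts in Hs578T non-BCSC libraries and 0.872% to 1.01% in Hs578T BCSC libraries, most of it FN1. In HCC70 the listed members held 0.00392% to 0.00445% in non-BCSCs and 0.00472% to 0.00481% in BCSCs. In MDA-MB-231 they held 0.195% to 0.246% in sgCtrl, 0.175% to 0.233% in KIF20A sg1, 0.103% to 0.174% in EV and 0.00845% to 0.0126% in the labelled-OE libraries. In Hs578T non-BCSCs the order by mean level was FN1 (8091 TPM), SPARC (1627 TPM), THBS1 (1107 TPM), LOXL2 (458 TPM), FBN1 (223 TPM), POSTN (92.9 TPM), TNC (72.5 TPM), LOX (45.8 TPM), OLFML2B (17.2 TPM) and THBS2 (1.31 TPM). In HCC70 non-BCSCs TNC was highest at 23.3 TPM, FN1 was at 7.41 TPM, LOXL2 at 5.14 TPM and LOX at 5.09 TPM, and no other member exceeded 1.22 TPM.

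**Figure D1:**
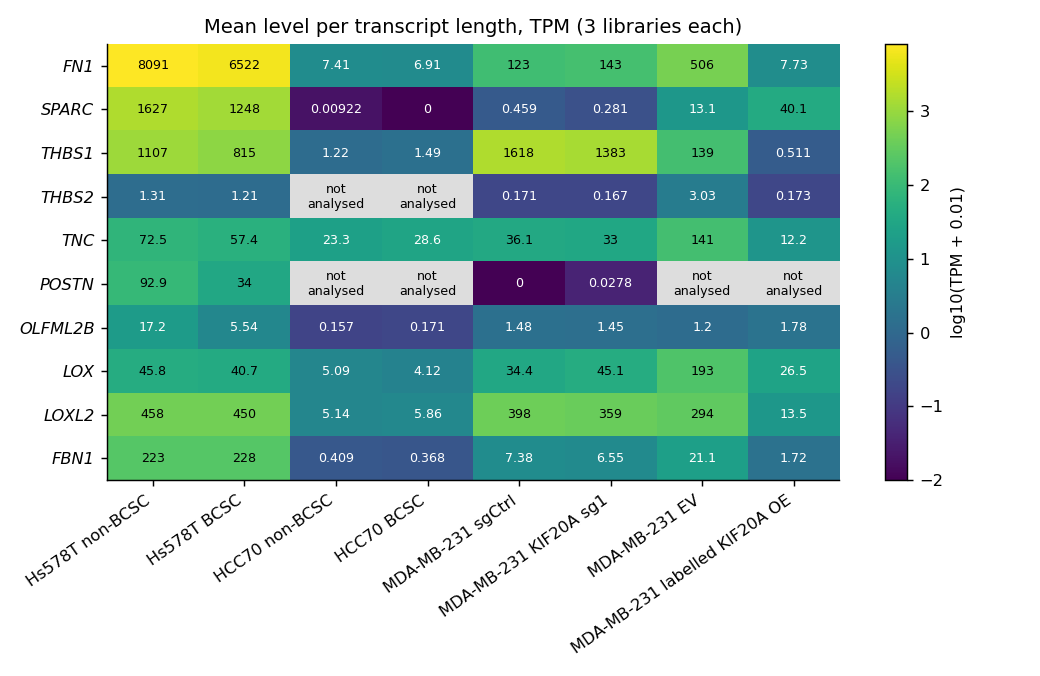
Mean level per transcript length (TPM, 3 libraries for each condition) of the 10 genes in the 8 conditions, with color on a log10 scale; gray cells were not analysed. FN1 ranged from 6.91 TPM in HCC70 BCSCs to 8091 TPM in Hs578T non-BCSCs. Among the conditions where it was analysed, POSTN was above 1 TPM in Hs578T only.

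FN1, FBN1, SPARC and OLFML2B were higher in both Hs578T conditions than in any other, with ranges apart. The same held for POSTN in the conditions where it was analysed. FN1 was highest in Hs578T non-BCSCs and then in Hs578T BCSCs (6522 ± 570 TPM, SD, n = 3), EV (506 ± 131 TPM), KIF20A sg1 (143 ± 36.6 TPM) and sgCtrl (123 ± 63.7 TPM), and it was at 7.73 TPM or less in the other 3 conditions. The ranges of KIF20A sg1 and sgCtrl overlapped, as did those of neighbours among the last 3 conditions. FBN1 was at 228 ± 13.7 TPM in Hs578T BCSCs and 223 ± 2.26 TPM in Hs578T non-BCSCs, whose ranges overlapped, and at 21.1 ± 4.38 TPM or less elsewhere. THBS1, by contrast, was highest in sgCtrl (1618 ± 60.4 TPM) and KIF20A sg1 (1383 ± 284 TPM), with overlapping ranges, followed by Hs578T non-BCSCs, Hs578T BCSCs and EV (139 ± 38.5 TPM). LOX and TNC were highest in EV, at 193 ± 91.8 TPM and 141 ± 14.8 TPM. For LOX, the ranges of Hs578T non-BCSCs, KIF20A sg1, Hs578T BCSCs, sgCtrl and the labelled-OE libraries each overlapped that of the next. LOXL2 did not separate Hs578T from sgCtrl, KIF20A sg1 and EV: the ranges of neighbours overlapped from Hs578T non-BCSCs (458 ± 23.3 TPM) down to EV (294 ± 165 TPM). The labelled-OE libraries lay below these, at 13.5 ± 2.05 TPM, with ranges apart. OLFML2B was between 1.20 and 1.78 TPM on average in the 4 conditions of MDA-MB-231, with overlapping neighbours. The 2 control conditions of MDA-MB-231 differed in several members, with SPARC at 0.459 ± 0.308 TPM in sgCtrl and 13.1 ± 13.1 TPM in EV, but they come from tables normalized separately and from different batches, so they are given side by side without a test.

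The genes picked on Hs578T, POSTN and OLFML2B, lie at chr13:37562583-37598844 and chr1:161983192-162023869 of GRCh38 (GENCODE 44), both on the minus strand. POSTN encodes periostin, a fasciclin domain protein that binds integrins and collagen; it was at 94.0, 95.2 and 89.5 TPM in the 3 non-BCSC libraries and 33.8, 34.1 and 34.1 TPM in the 3 BCSC libraries. OLFML2B, a secreted olfactomedin domain protein, was at 17.0, 16.2 and 18.3 TPM in non-BCSCs and 6.01, 5.04 and 5.59 TPM in BCSCs. Every BCSC library was below every non-BCSC library for both genes, and the BCSC means were 2.73-fold lower for POSTN and 3.09-fold lower for OLFML2B. On the log2(TPM + 1) scale used for all fold changes here, the differences were -1.42 (SE 0.04) and -1.47 (SE 0.07). Outside Hs578T, POSTN had 0 reads in all 3 sgCtrl libraries and in 2 of 3 KIF20A sg1 libraries, where 3 reads would be 0.0602 to 0.0658 normalised reads, and 4 reads in the remaining one. It was not analysed in HCC70 or in the vector experiment. OLFML2B in HCC70 was at 0.141 to 0.172 TPM in non-BCSCs and 0.143 to 0.201 TPM in BCSCs, or 5 to 7 reads a library, too few for a test.

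Among the 8 members not picked on this line, 4 fell in Hs578T BCSCs and none rose; of all 13324 genes tested, 4.26% fell, 2.90% rose and 7.15% changed in either direction (limma, adjusted p under 0.05). THBS1, SPARC, TNC and FN1 are the genes that fell. The crosslinking enzymes LOX and LOXL2, the microfibril gene FBN1 and the weakly expressed THBS2 did not pass the test. Groups did not overlap for 5 of the 8 genes, these 4 and LOX, all lower in BCSCs, against 29.0% of all genes tested in either direction.

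THBS1 encodes thrombospondin-1, which binds CD47 and activates latent TGF-beta. It was at 1107, 1111 and 1104 TPM in the non-BCSC libraries and 816, 775 and 855 TPM in the BCSC libraries. All BCSC values lay below the non-BCSC values, and the non-BCSC libraries differed among themselves by a coefficient of variation of 0.311%. The log2 fold change was -0.44 (SE 0.05, adjusted p = 0.0024 by limma). SPARC, a collagen-binding and calcium-binding glycoprotein, was at 1645, 1637 and 1601 TPM in non-BCSCs and 1247, 1199 and 1296 TPM in BCSCs. These groups were also apart, with a log2 fold change of -0.38 (SE 0.05, adjusted p = 0.0035 by limma). When any 1 library was left out, the adjusted p by limma was at most 0.019 for THBS1 and 0.029 for SPARC.

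TNC, or tenascin-C, is a hexameric glycoprotein of wounds and of tumor stroma. It was at 69.8, 72.8 and 74.7 TPM in non-BCSCs and 57.5, 53.6 and 61.0 TPM in BCSCs. The groups did not overlap, and the log2 fold change was -0.33 (SE 0.06, adjusted p = 0.015 by limma). FN1, or fibronectin, whose fibrils carry collagen and growth factors, was the most abundant member at 7976, 8157 and 8139 TPM in non-BCSCs and 6528, 5949 and 7089 TPM in BCSCs. Again the groups were apart, with a wider spread among BCSCs, and the log2 fold change was -0.31 (SE 0.07, adjusted p = 0.035 by limma). The calls for TNC and FN1 were lost when certain libraries were left out. The adjusted p of TNC by limma was 0.063 without BCSC replicate 1, 0.073 without non-BCSC replicate 2 and 0.051 without non-BCSC replicate 3, and that of FN1 was 0.12, 0.14 and 0.11 without these libraries and 0.11 without non-BCSC replicate 1. FN1 had an adjusted p of 0.30 when no minimum level was set.

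LOX, the lysyl oxidase that starts collagen and elastin crosslinks, was at 47.5, 45.4 and 44.5 TPM in non-BCSCs and 40.2, 42.7 and 39.2 TPM in BCSCs. The 3 BCSC values were the lower ones, but the log2 fold change of -0.17 (95% interval -0.28 to -0.05) had an adjusted p of 0.095 by limma. LOXL2, a lysyl oxidase also known for promoting invasion, was at 438, 454 and 484 TPM in non-BCSCs and 443, 448 and 461 TPM in BCSCs, and the groups overlapped (log2 fold change -0.02, 95% interval -0.14 to 0.09). FBN1, or fibrillin-1, was at 225, 223 and 221 TPM in non-BCSCs and 227, 215 and 242 TPM in BCSCs, also with overlap (log2 fold change 0.03, 95% interval -0.09 to 0.15). Both intervals lie above the log2 fold change measured for THBS1. THBS2, a second trimeric thrombospondin, was at 1.34, 1.30 and 1.28 TPM in non-BCSCs and 1.22, 1.06 and 1.35 TPM in BCSCs, from 81 to 110 reads a library (log2 fold change -0.07, 95% interval -0.31 to 0.17). In GENCODE 44 annotation, 31.2% of the exon bases of THBS2 lie in THBS2-AS1 on the other strand, and whether the counting used strand is not given in the sources used here.

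**Figure D2:**
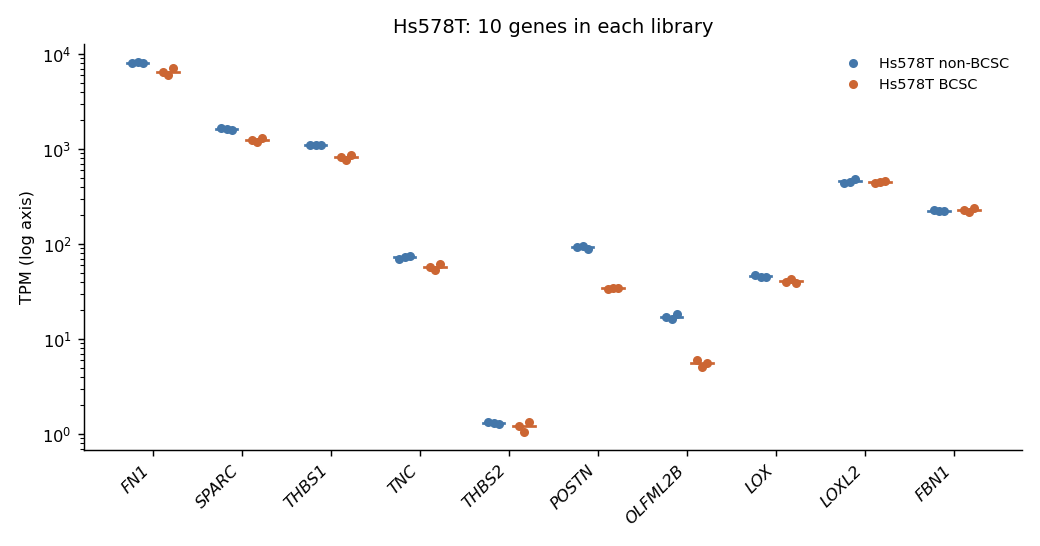
TPM (log axis) of the 10 genes in each Hs578T library, with non-BCSC in blue, BCSC in orange, one point for each library and a line at the mean of 3. POSTN and OLFML2B, picked for this fall, lay at 33.8 to 34.1 and 5.04 to 6.01 TPM in BCSCs, and the points of LOXL2 and FBN1 overlapped.

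The RefSeq promoters of the picked genes are shown with those of THBS1, SPARC and TNC, the members that fell in Hs578T BCSCs with the smallest adjusted p, each as the 250 bases before the start on GRCh38.p14, 5′ to 3′ on the strand of the gene. Capitals mark matches on either strand to the letters GGAATG (bound by TEAD factors), TGANTCA (AP-1), CAGACA (SMAD), ACGTG (core of the hypoxia response element) and TATAA (TATA box); TATAA can overlap its own reverse complement. The windows are chr13:37598769-37599018 for POSTN, chr1:162023870-162024119 for OLFML2B, chr15:39580829-39581078 for THBS1, chr5:151686916-151687165 for SPARC and chr9:115118158-115118407 for TNC; THBS1 is on the plus strand and the others are on the minus strand.
POSTN: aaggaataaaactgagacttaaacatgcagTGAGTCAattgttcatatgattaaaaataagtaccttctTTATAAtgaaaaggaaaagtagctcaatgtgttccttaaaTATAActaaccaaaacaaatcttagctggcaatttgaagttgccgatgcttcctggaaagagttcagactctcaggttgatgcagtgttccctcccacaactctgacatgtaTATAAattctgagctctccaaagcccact
OLFML2B: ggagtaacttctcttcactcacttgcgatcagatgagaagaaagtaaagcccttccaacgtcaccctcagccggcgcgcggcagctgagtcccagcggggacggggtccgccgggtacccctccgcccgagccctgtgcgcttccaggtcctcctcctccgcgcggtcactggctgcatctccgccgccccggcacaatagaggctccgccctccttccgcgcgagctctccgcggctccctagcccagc
THBS1: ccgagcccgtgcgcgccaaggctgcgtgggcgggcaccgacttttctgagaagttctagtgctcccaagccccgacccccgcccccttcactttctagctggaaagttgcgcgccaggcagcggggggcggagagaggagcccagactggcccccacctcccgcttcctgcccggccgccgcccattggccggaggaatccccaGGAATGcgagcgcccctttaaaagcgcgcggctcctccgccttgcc
SPARC: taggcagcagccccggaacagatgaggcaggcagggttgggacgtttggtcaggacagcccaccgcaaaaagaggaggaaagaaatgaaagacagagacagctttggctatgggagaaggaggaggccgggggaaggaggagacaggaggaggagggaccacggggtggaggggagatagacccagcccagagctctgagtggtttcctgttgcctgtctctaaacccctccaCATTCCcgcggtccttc
TNC: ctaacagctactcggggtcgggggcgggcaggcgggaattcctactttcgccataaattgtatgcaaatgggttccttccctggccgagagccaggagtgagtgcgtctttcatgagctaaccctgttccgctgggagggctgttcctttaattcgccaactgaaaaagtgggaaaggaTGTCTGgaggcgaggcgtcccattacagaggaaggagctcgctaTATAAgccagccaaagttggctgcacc

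No motif was shared by all 5 windows. THBS1 and SPARC each held 1 TEAD match, 41 to 46 and 12 to 17 bases before the start, and 11.9% of the 35116 promoters of the same length in the table hold at least 1. POSTN alone held an AP-1 match (6.57% of all promoters), 214 to 220 bases before the start. TATAA (18.9% of all promoters) matched 4 times in POSTN, nearest at 25 to 29 bases before the start, and once in TNC, at 23 to 27 bases. TNC held 1 SMAD match (13.6% of all promoters), 66 to 71 bases before the start, and none of these 5 held ACGTG (18.5%). OLFML2B had no match to any of the 5. Among the other members with an entry, FBN1 held 1 TEAD match, FN1 held 1 TATAA, and LOX held 4 matches to ACGTG and 1 to CAGACA. THBS2 held 2 TEAD and 2 SMAD matches, 1 ACGTG and 1 TATAA. A match is a run of letters, and its absence from a window says nothing of the factor. In all, 9 of 10 members had a promoter entry. GC content was 36.4% for POSTN and 54.8% to 69.6% for the other 4 windows shown, with a median of 58% over all promoters.

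The neighbours of these genes in the same families moved unevenly in Hs578T. Over 10 lists of related matrix and receptor genes, 45 non-members were tested, 9 fell and 2 rose, and their median log2 fold change was -0.05, beside -0.01 for all genes. Of the proteoglycans, 3 of 6 tested genes fell. DCN (decorin), which coats collagen fibrils, went from a mean of 82.1 to 42.1 TPM (log2 fold change -0.95) and LUM (lumican) from 385 to 228 TPM (-0.75). CCN4, a matricellular CCN protein, fell from 17.2 to 6.52 TPM (-1.28). TGFBI, the other fasciclin domain gene, fell from 3721 to 3150.0 TPM (-0.24). Of the crosslinking enzymes, the lysyl hydroxylases PLOD1 and PLOD2 fell by 0.35 and 0.27 on the log2 scale. EFEMP2, a fibulin of elastic fibres, fell by 0.39 on the log2 scale and was the single gene called among 12 tested in the elastic fibre list, FBN1 included. Of the receptors, 1 of 8 changed: ITGB3, the beta subunit of an integrin that binds periostin and fibronectin, rose from 34.4 to 45.7 TPM (log2 fold change 0.40). The other gene that rose was SMOC1 of the SPARC family, from 5.72 to 8.95 TPM, named because it completes this count.

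Markers of mesenchymal cells and of proliferation moved in the same libraries. Of 10 fibroblast and mesenchymal markers, 8 were lower in Hs578T BCSCs, and VIM and PDGFRA had log2 fold changes of 0.07 and 0.10 that did not pass the test. COL3A1 went from 774 to 256 TPM, and FAP went from 2.77 to 0.816 TPM. FAP therefore passed the minimum mean of 1 through the non-BCSCs alone, and its call adds no support to the count. The summed level of the list was 6098 to 6229 TPM in non-BCSCs and 5258 to 5370 TPM in BCSCs. Of 6 proliferation markers, 5 were higher in Hs578T BCSCs and 5 in HCC70 BCSCs. Their part in the lower levels of THBS1, SPARC, TNC and FN1 was not tested. In such bulk samples, fewer cells expressing a gene and less RNA of it per cell cannot be told apart.

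In HCC70, where POSTN and THBS2 were not analysed, no member passed the test. Of 8 members analysed, 5 exceeded the minimum mean of 1 TPM, and limma called 0 of these 5, against 2.83% of the 13218 genes tested (2.28% higher and 0.552% lower). Of the 5, 2 (LOX and TNC) had an unadjusted p under 0.05 by limma, beside 23.7% of all genes tested. On recovered reads, edgeR called LOX alone, where it called 677 of all 13218 genes. DESeq2 called LOX and TNC, where it called 1179 of all genes. TNC was at 20.7, 24.8 and 24.5 TPM in non-BCSCs and 28.9, 29.0 and 28.0 TPM in BCSCs. The BCSC libraries were the higher ones, opposite to Hs578T, with a log2 fold change of 0.29 (95% interval 0.11 to 0.47, adjusted p = 0.082 by limma and 0.030 by DESeq2). LOX was at 5.09, 4.99 and 5.19 TPM in non-BCSCs and 4.25, 4.01 and 4.11 TPM in BCSCs, from 244 to 360 reads a library. It was lower in every BCSC library, with a log2 fold change of -0.25 (95% interval -0.43 to -0.07, adjusted p = 0.11 by limma, 0.043 by edgeR and 0.048 by DESeq2). Groups did not overlap for these 2 genes of 5, beside 30.9% of all genes tested.

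The other members were low in HCC70 and their groups overlapped. FN1 was at 7.03, 7.54 and 7.67 TPM in non-BCSCs and 6.62, 6.89 and 7.22 TPM in BCSCs (log2 fold change -0.09, 95% interval -0.26 to 0.08). LOXL2 was at 4.80, 5.57 and 5.07 TPM in non-BCSCs and 5.39, 6.09 and 6.11 TPM in BCSCs (log2 fold change 0.16, 95% interval -0.04 to 0.36). THBS1 was at 1.05, 1.17 and 1.44 TPM in non-BCSCs and 1.47, 1.59 and 1.41 TPM in BCSCs, from 61 to 122 reads a library (log2 fold change 0.17, 95% interval -0.10 to 0.44). FBN1 ranged from 0.312 to 0.499 TPM over the 6 libraries. SPARC had 1 read in 1 non-BCSC library and 0 reads in the other 5, where 3 reads would be 0.0631 to 0.0760 TPM. Of 28 neighbours tested in HCC70, 1 rose and 0 fell: LTBP1, which tethers latent TGF-beta to the matrix, went from 33.1 to 44.5 TPM (log2 fold change 0.42, adjusted p = 0.019 by limma).

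The BCSC effect was then compared between Hs578T and HCC70 in a model of the 12 sorted libraries. Cell line and batch cannot be told apart in this comparison. Of all 13705 genes, 8.10% differed by limma. Among the 5 members that exceeded the minimum in both lines, THBS1 and TNC differed. SPARC and FBN1 entered the model through their Hs578T levels alone, so they give no comparison of the lines. For THBS1 the effect in Hs578T minus that in HCC70 was -0.61 on the log2 scale (SE 0.09, adjusted p = 0.0028 by limma). For TNC it was -0.62 (SE 0.10, adjusted p = 0.0045 by limma), with the BCSC libraries lower than all non-BCSC libraries in one line and higher in the other. The value for SPARC, -0.37 (SE 0.06, adjusted p = 0.0038 by limma), restates its fall in Hs578T, since SPARC had 1 read in all of HCC70, and with a pseudocount of 0.1 it was -0.27 with an adjusted p of 0.19 by limma. The effects on FN1 (-0.23, adjusted p = 0.12), LOXL2 (-0.18, adjusted p = 0.19) and LOX (0.08, adjusted p = 0.47) were not shown to differ by limma. FN1 had an adjusted p of 0.039 without Hs578T BCSC replicate 3. OLFML2B, for which no test is given, was also under the minimum in HCC70. Its value of -1.49 restates the fall in Hs578T for which it was picked and does not compare the lines.

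**Figure D3:**
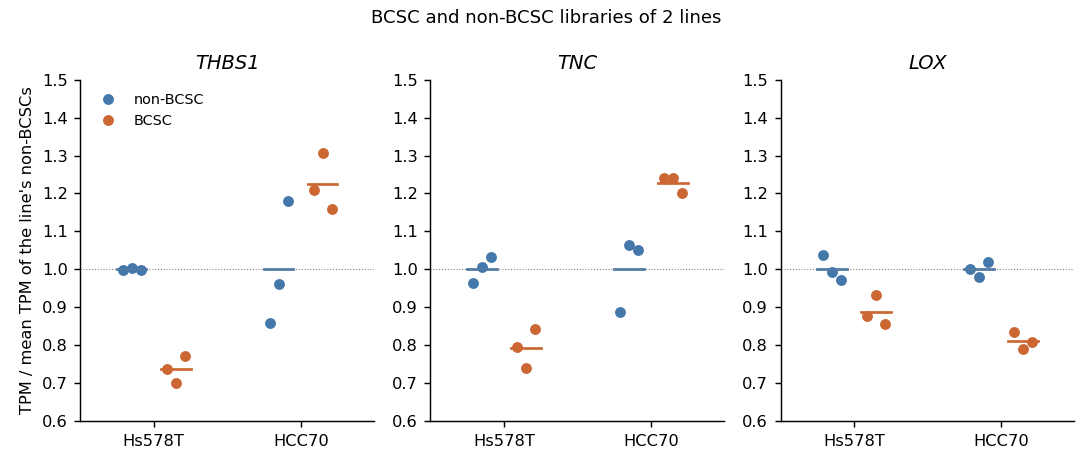
TPM of THBS1, TNC and LOX in each BCSC (orange) and non-BCSC (blue) library, divided by the mean of the non-BCSCs of the same line, with a line at the mean of 3. TNC BCSC libraries lay below all non-BCSC libraries in Hs578T and above them in HCC70, and LOX BCSC libraries lay below in both lines.

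In MDA-MB-231 cells with KIF20A sg1, 0 of 7 tested members changed against sgCtrl, and limma called 0% of 12852 genes. None of the 7 had an unadjusted p under 0.05, edgeR and DESeq2 called no member, and the groups of all 7 overlapped, beside 13.0% of all genes with groups apart. Over all genes, 899 had an unadjusted p under 0.05. The libraries of a group differed widely. FN1 was at 406, 617 and 190.4 normalised reads in sgCtrl and 487, 566 and 313 in KIF20A sg1. The lowest sgCtrl library, replicate 3, was also lowest of its group for LOXL2 and TNC. The log2 fold change of FN1 was 0.28 (95% interval -0.49 to 1.06), and without sgCtrl replicate 3 it was -0.18. Without that library, limma called 144 genes, 137 of them lower, and still no member.

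THBS1, the most abundant member in these cells, was at 3329, 3607 and 3392 normalised reads in sgCtrl and 2358, 3556 and 2564 in KIF20A sg1. Of the KIF20A sg1 libraries, replicate 2 lay within the sgCtrl range and the other 2 below it (log2 fold change -0.31, 95% interval -0.75 to 0.13). LOX was at 59.4, 84.7 and 61.1 in sgCtrl and 94.4, 100.5 and 63.4 in KIF20A sg1, with overlap (log2 fold change 0.32, 95% interval -0.10 to 0.74). LOXL2 was at 516, 748 and 408 in sgCtrl and 484, 506 and 458 in KIF20A sg1 (log2 fold change -0.16, 95% interval -0.59 to 0.26). TNC was at 143, 135 and 60.8 in sgCtrl and 116, 95.9 and 88.1 in KIF20A sg1 (log2 fold change -0.09, 95% interval -0.67 to 0.50). The intervals of THBS1, LOXL2 and TNC are wide enough to hold falls of the size called in Hs578T. That of LOX does not reach such a fall. FBN1 ranged from 21.4 to 34.2 normalised reads and OLFML2B from 1.49 to 1.80 over the 6 libraries, with log2 fold changes of -0.23 and -0.05. SPARC and THBS2 stayed under the minimum, with 12 to 46 and 10 to 29 reads a library. Of 34 neighbours tested, none was called, with a median log2 fold change of -0.06 beside 0.00 for all genes.

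In the vector experiment, 8 of 9 tested members differed between EV and the labelled-OE libraries, 7 lower and 1 higher, in a comparison where limma called 69.7% of all 15265 genes (23.4% lower and 46.2% higher). Of the lower genes, THBS2 averaged 6.42 CPM in EV and 0.394 CPM in the labelled-OE libraries. It therefore passed the minimum mean of 1 through EV alone, and its call adds no support to the count. Over all genes the median change on the log2 scale was 0.37, and 0.03 after scaling by the median of ratios, under which each of the 9 genes kept its direction. Relative to that median, the 7 lower genes had values of -7.42 (THBS1) to -2.40 (THBS2) and SPARC had 1.58. These libraries differ from EV in the line-marking genes given above, and the part of that difference in the values below was not tested.

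Of FN1 and the matricellular genes, THBS1 was at 329, 204 and 349 CPM in EV. In the labelled-OE libraries it was at 1.19, 1.08 and 1.23 CPM, that is 19 to 24 reads. Every labelled-OE library was far below every EV library, and the log2 fold change was -7.05 (SE 0.22, adjusted p = 1.1e-07 by limma). FN1 was at 2010.2, 1204 and 1775 CPM in EV and 28.6, 24.9 and 28.6 CPM in the labelled-OE libraries (log2 fold change -5.84, SE 0.19). TNC was at 496, 427 and 413 CPM in EV and 78.9, 5.59 and 39.1 CPM in the labelled-OE libraries (log2 fold change -4.01, SE 0.76). Its lowest library, replicate 2, was also the labelled-OE library with the lowest KIF20A. THBS1, FN1 and THBS2 were lowest there too, but LOX was lowest in replicate 1, and LOXL2 and FBN1 in replicate 3. A relation to KIF20A was not tested. THBS2 was at 11.7, 0.677 and 6.88 CPM in EV and 0.877, 0.0902 and 0.214 CPM in the labelled-OE libraries. Its groups overlapped, its log2 fold change was -2.03 (SE 0.66, adjusted p = 0.024 by limma), and the adjusted p rose to 0.069 without EV replicate 1, 0.069 without EV replicate 3, and 0.091 and 0.075 without replicates 2 and 3 of the labelled-OE libraries. The size of this change depended on the scale, at -3.37 with a pseudocount of 0.1, -4.44 with edgeR and -4.42 with DESeq2 (adjusted p = 0.020, 0.0094 and 3.7e-05).

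SPARC went the other way. It was at 8.24, 6.28 and 36.9 CPM in EV and 68.0, 74.6 and 27.6 CPM in the labelled-OE libraries, so that EV replicate 3 exceeded replicate 3 of the other group. The log2 fold change was 1.96 (SE 0.62, adjusted p = 0.021 by limma). The call was lost with edgeR (1.40, adjusted p = 0.097) and DESeq2 (1.40, adjusted p = 0.14), and by limma without EV replicate 1 or 2 (adjusted p = 0.064 and 0.073) or without replicate 1 or 2 of the labelled-OE libraries (adjusted p = 0.082 and 0.093). OLFML2B was at 1.24, 1.69 and 1.23 CPM in EV and 3.57, 1.04 and 2.03 CPM in the labelled-OE libraries, with overlap, and its log2 fold change of 0.36 (95% interval -0.32 to 1.04) was close to the median of all genes.

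The crosslinking enzymes and FBN1 were lower in all 3 labelled-OE libraries. LOX was at 587, 306 and 254 CPM in EV and 50.9, 54.4 and 64.3 CPM in the labelled-OE libraries (log2 fold change -2.65, SE 0.28, adjusted p = 6.8e-05 by limma). LOXL2 was at 657, 372 and 203 CPM in EV and 23.6, 19.1 and 18.1 CPM in the labelled-OE libraries (log2 fold change -4.12, SE 0.37). FBN1 was at 69.8 to 101 CPM in EV and 10.8, 6.63 and 6.37 CPM in the labelled-OE libraries (log2 fold change -3.37, SE 0.23). No value of these 3 genes overlapped between groups. Among all 9 members the groups were apart for 6, all lower, beside 74.1% of all genes tested in either direction.

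Of 50 neighbours tested in the vector experiment, 28 were lower and 16 higher, with a median log2 fold change of -1.30. Several of the higher genes, among them FBLN1 and FBN2, averaged under 1 CPM in EV. They passed the minimum mean of 1 through the labelled-OE libraries alone, and ITGB3, among the lower genes, through EV alone. Calls of such genes add no support to these counts. All 8 tested receptors were lower, among them ITGB1, the common beta subunit of fibronectin receptors, which went from 1610 to 157 CPM, and ITGB3, which went from 49.2 to 0.777 CPM. All 3 tested CCN genes were lower, CCN2 from 708 to 27.8 CPM. In the crosslinking list TGM2, a transglutaminase, went from 449 to 3.24 CPM, whereas LOXL3 rose from 3.22 to 18.5 CPM. Of 14 genes tested in the elastic fibre list, FBN1 included, 7 were lower and 5 higher, with FBLN1 going from 0.511 to 197 CPM, FBN2 from 0.671 to 105.6 CPM and LTBP2 from 195 to 5.54 CPM. In the SPARC family 5 of 6 tested genes were called higher, SPARC included, and 0 lower, with SMOC1 going from 0.0317 to 80.2 CPM. Groups overlapped for SPARC and SPOCK1, and the call of SPARC was lost with edgeR and DESeq2. SMOC1 and SPOCK2 passed the minimum through the labelled-OE libraries alone. SPOCK1 and SPOCK2 are named for these limits, which leave no support for a rise of the family.

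**Figure D4:**
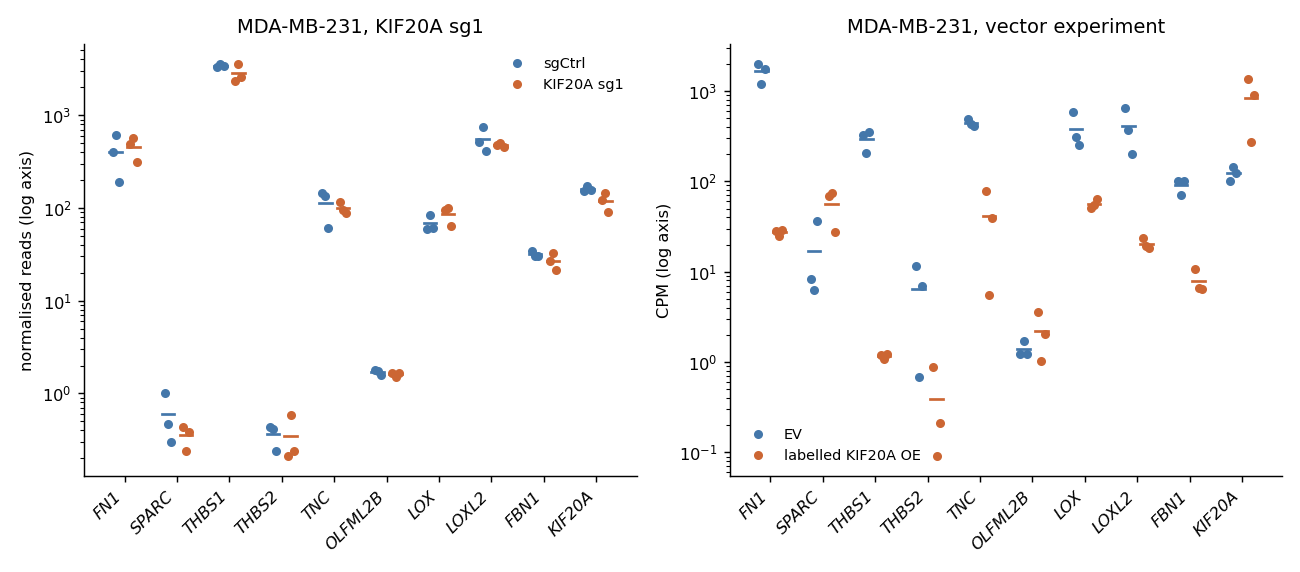
Values (log axes) of 9 members and KIF20A in each MDA-MB-231 library of the sgRNA experiment (normalised reads, left) and of the vector experiment (CPM, right), with controls in blue, KIF20A sg1 or labelled-OE libraries in orange, a point for each library and a line at the mean of 3. All members overlap between groups on the left, and on the right THBS1, FN1, TNC, LOX, LOXL2 and FBN1 are apart and lower in the labelled-OE libraries.

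**Figure D5:**
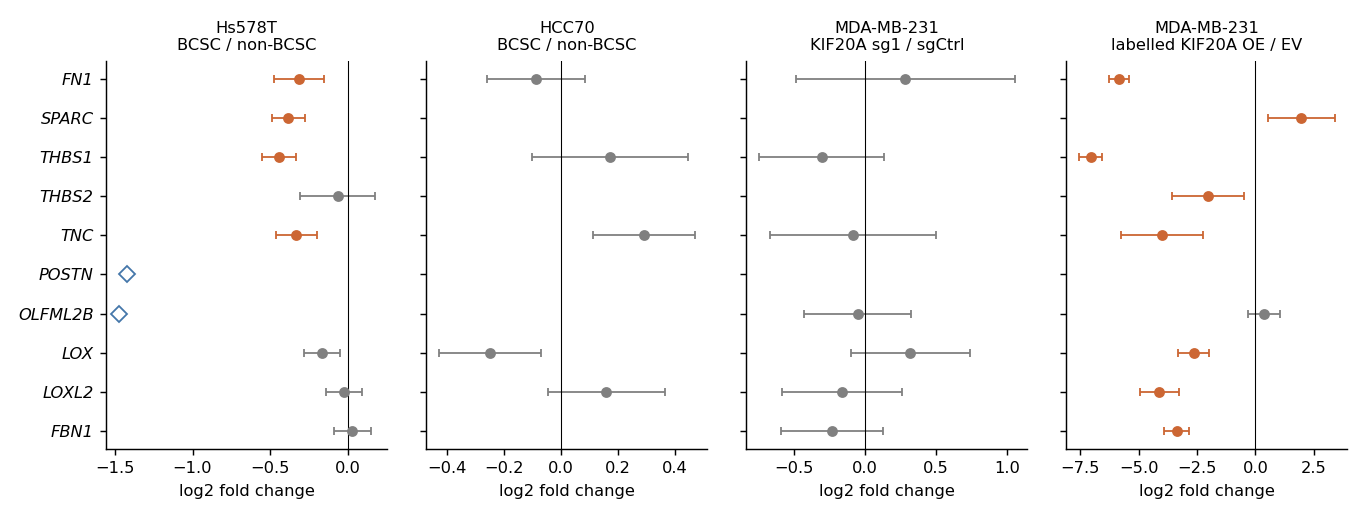
Log2 fold change of each gene in the 4 comparisons, with 95% intervals from limma; orange marks an adjusted p under 0.05, gray a higher one, and open diamonds the picked genes, which have no test. The horizontal scales differ: the called values run from -0.44 to -0.31 in Hs578T and from -7.05 to 1.96 for the labelled-OE libraries, and no value is called in HCC70 or with KIF20A sg1.

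For members in all 4 tables, the genes with the most similar changes over the 4 comparisons were sought among 11638 genes, by the root mean square difference of the 8 condition means on the log2(value + 1) scale, each table centred on its own pair of means. Genes reaching a mean of 10 in at least 1 condition were compared, and this is a description without a test. OLFML2B was picked for its fall in Hs578T, its largest change over the 4 comparisons. Its match therefore rests largely on that fall and gives no support for a shared behaviour. The closest gene to OLFML2B was COL5A3, a fibrillar collagen gene (0.06), whose condition means differed by -1.24 in Hs578T, 0.01 in HCC70, -0.02 with KIF20A sg1 and 0.44 in the vector experiment. The closest to THBS1 were TGFBI (0.09), with -0.24, 0.15, -0.20 and -7.37 in the same order, and S100A4 (0.10), with -0.53, 0.22, -0.16 and -6.72. The closest to TNC was UBA7 (0.03), to SPARC NMU (0.02), to LOX SPRED1 (0.03), to FBN1 IGFBPL1 (0.03) and to FN1 PARP14 (0.06).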

How the data were processed

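Poly-A RNA was sequenced as paired-end reads of stranded libraries. Per the labels, GRCh38, HISAT2 2.0.5 and featureCounts 1.5.0-p3 appear in the submitters' processing notes; the annotation and strand setting are not given in the sources used here. For the sorted lines the authors deposited TPM. For the sgRNA experiment they deposited a signal, in which the reads of a library share 1 divisor (called normalised reads), and for the vector experiment CPM by the authors. The number of sample columns left unused was 0.

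Whole reads were recovered from the ratios and steps of the values for 100% of genes; for 346 genes of Hs578T and 397 of HCC70 a common divisor was multiplied back. Values of the sgRNA and vector experiments were whole within 0.05 for 100% of entries. Levels per length there use lengths implied by the TPM values, which cover 95.1% to 98.6% of the signal. Older symbols were updated through RefSeq synonyms.

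Genes with a mean of at least 1 were tested by limma 3.58.1 in R 4.3.3 on log2(value + 1) with a trend, two-sided, each comparison alone, with Benjamini-Hochberg adjustment over all genes. The fits were tested on simulated data. This scale understates changes of low genes. The difference between lines used the 12 sorted libraries. Alternatives were a pseudocount of 0.1, no minimum or 10, the median of ratios, a replicate block, each library left out, and count models (edgeR 4.0.16, DESeq2 1.42.0, the latter named in the study's methods) fitted to recovered reads.

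The members and lists were chosen with earlier results of these data known. All members are named. Neighbours named are, per list and comparison, up to 2 called genes with the largest change each way if either group averaged 10 or more, and up to 2 by level. Replicates are biological triplicates per the labels. Floors of 3 reads cover counting error only. A promoter of LOXL2 was not used here, and 1 result is not reported here.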

Additional observations from a re-analysis of the deposited data

Results flagged for a closer look

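The BCSC effect differed between the Hs578T and HCC70 lines for THBS1 and TNC, by a test of the difference itself. The effect in Hs578T minus that in HCC70 was -0.61 on the log2 scale for THBS1, where Hs578T gave -0.44 and HCC70 0.17. In HCC70, however, THBS1 was close to the minimum, at 1.05 to 1.59 TPM. Its groups overlapped there, and its own adjusted p was 0.41 by limma. For TNC the difference between the lines was -0.62, from -0.33 in Hs578T and 0.29 in HCC70. The 12 fits that each left out 1 library gave adjusted p-values by limma of 0.0013 to 0.012 for THBS1 and 0.0042 to 0.017 for TNC. The same test also passed for SPARC, at -0.37, but SPARC had 1 read in all 6 HCC70 libraries, so that value is its fall in Hs578T again and does not compare the lines; with a pseudocount of 0.1 it was -0.27 (adjusted p = 0.19 by limma). Line and batch cannot be told apart here.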

How the results depend on the processing

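Of the values of single members, 235 of those under other settings and 259 of those with a library left out kept their direction and side of the threshold; 1 and 7 reversed, 5 and 15 lost a call, and 3 and 1 gained one. The other 4 values moved beyond the replicate spread, all of OLFML2B, at -1.61 in Hs578T with edgeR, DESeq2 and a pseudocount of 0.1, and -1.69 for the difference between lines with that pseudocount. In HCC70 the called members numbered 2 with DESeq2 and 1 with edgeR in place of 0. The cause was not tested. With a library left out, called members numbered 2 to 4 in Hs578T, 0 to 0 in HCC70 and with KIF20A sg1, 6 to 7 in the vector experiment and 3 to 4 for the difference between lines, SPARC included; with a pseudocount of 0.1, 2 were called there, without SPARC. Small values that changed sign were, in Hs578T, LOXL2 (0.0028 with the median of ratios, -0.057 to 0.015 with a library left out) and FBN1 (-0.015 to 0.071), and with KIF20A sg1, FN1 (-0.18 to 0.67), LOXL2 (-0.37 to 0.070) and TNC (-0.48 to 0.13, among them 0.00033 and 0.088).

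Over all genes, limma called 953 in Hs578T (386 higher, 567 lower), against 1644 with edgeR, 343 to 865 with a library left out, and 620 higher and 573 lower with the median of ratios. In HCC70 it called 374, against 1179 with DESeq2, 677 with edgeR, 233 with the median of ratios, 178 with no minimum and 32 to 270 with a library left out. With KIF20A sg1 DESeq2 called 11 in place of 0, and without KIF20A sg1 replicate 2 limma called 5. In the vector experiment the split of 7055 higher and 3579 lower became 5129 and 5007 with the median of ratios, and for the difference between lines 248 and 862 became 479 and 591.

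Same-numbered replicates did not deviate together in every pair (correlations of -0.16 to 0.19), so the numbers were not taken as pairs. With a replicate block, 3 members were called in Hs578T (FN1 had an adjusted p of 0.08 by limma), and calls over all genes fell to 669 in Hs578T, 128 in HCC70 and 408 of 1110 for the difference between lines. Called members numbered 0, 0, 8 and 3 under the block in HCC70, with KIF20A sg1, in the vector experiment and for the difference. Low levels, under the minimum mean of 1, limit SPARC, FBN1 and OLFML2B in HCC70 and POSTN, SPARC and THBS2 in the sgRNA experiment.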
